A study of Mus musculus with 6 samples.

Results

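The interferon-induced transmembrane (IFITM) genes of the mouse were followed in MLL-AF9 leukemia cells in which Brd9, a subunit of the non-canonical BAF chromatin remodeling complex, could be deleted. The members were taken by gene symbol: Ifitm1, Ifitm2, Ifitm3, Ifitm5, Ifitm6, Ifitm7 and Ifitm10, 7 of the 55487 genes in the table. The family was chosen by its normalized counts, which differed between the groups of this study, so its differences between PBS and pIpC are given as a description, with no test. Each of the 6 libraries was bulk poly(A)-selected RNA of GFP+ cells, GFP marking the MLL-AF9 construct, from the marrow of femora and tibiae. The labels name GFP+ cells, whereas the study's text names c-Kit+ marrow cells for this comparison, and which selection was applied is unsure.

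The mice were C57BL/6. Donor cells were CD45.2(+) Mx1-Cre Brd9fl/fl MA9, where MA9 is the MLL-AF9 fusion oncogene, and the recipients were CD45.1(+) CD45.2(-). From the day after transplantation of 1000 cells, recipients were given 3 injections, on alternate days, of either PBS (n = 3) or 20 mg/kg pIpC (n = 3), and cells were prepared 10 days after injection. The double-stranded RNA analog pIpC evokes interferon, which switches on the Mx1 promoter and so the Cre recombinase in cells that respond to interferon. Mx1-Cre, the floxed Brd9 alleles and MLL-AF9 were common to both groups, and no group received pIpC without them, so the response to pIpC itself and the deletion of Brd9 cannot be told apart here. The labels tie no library to an animal, so p-values measure only the spread between these libraries, which may be technical.

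IFITM proteins are small membrane proteins of the CD225 family that sit in the plasma membrane and in endosomes and hinder the fusion of enveloped viruses with the cell. Interferon raises several of them through STAT and IRF factors, which bind the interferon-stimulated response element (ISRE) and the gamma-activated sequence (GAS) in DNA. Palmitoylation anchors the proteins in the membrane, and ubiquitin ligases such as NEDD4 mark them for degradation.

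Of the 7 members, 5 lay side by side. In GRCm38, by the GENCODE M21 annotation, Ifitm5, Ifitm2, Ifitm1, Ifitm3 and Ifitm6 filled 69.0 kb of chromosome 7 from 140948958 to 141017924, with Ifitm1 on the plus strand and the others on the minus strand. Ifitm10 lay 1.31 Mb away on the same chromosome, from 142325837 to 142373753, and Ifitm7 lay on chromosome 16, from 13981699 to 13986888. Coding sequences of Ifitm1, Ifitm2 and Ifitm3 were alike, with 82.1% identity between Ifitm1 and Ifitm2, 82.1% between Ifitm1 and Ifitm3 and 80.9% between Ifitm2 and Ifitm3. The coding sequence of Ifitm7 was most like that of Ifitm1, at 89.3%, and the longest run of bases shared exactly by any pair of members was 69 bases, between Ifitm2 and Ifitm3. How reads from such runs were assigned is not given in the sources used here, so values of these members carry that uncertainty. Gm45717, a gene model on the same strand, covered 40.9% of the exon bases of Ifitm2 and 29.7% of those of Ifitm5, and was itself at 0 in every library.

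RefSeq start-site windows were found for all 7 members and were searched, on both strands, for the ISRE core (GAAA, any 2 bases, GAAA) and the GAS element TTCNNNGAA from 250 bases before to 30 bases after the start. Of 32851 such windows in the mouse table, 3.28% held the first and 7.83% the second. The windows of Ifitm2, Ifitm3 and Ifitm6 are shown because they held matches, which are in capitals. They are written 5′ to 3′ on the minus strand of GRCm38.p6, at chr7:140955932-140956211, chr7:141010715-141010994 and chr7:141016863-141017142.
Ifitm2: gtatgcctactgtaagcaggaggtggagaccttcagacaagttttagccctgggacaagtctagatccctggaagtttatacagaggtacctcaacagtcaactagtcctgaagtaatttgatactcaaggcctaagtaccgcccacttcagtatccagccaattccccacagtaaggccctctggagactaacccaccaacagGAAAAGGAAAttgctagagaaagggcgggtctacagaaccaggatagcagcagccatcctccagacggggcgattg
Ifitm3: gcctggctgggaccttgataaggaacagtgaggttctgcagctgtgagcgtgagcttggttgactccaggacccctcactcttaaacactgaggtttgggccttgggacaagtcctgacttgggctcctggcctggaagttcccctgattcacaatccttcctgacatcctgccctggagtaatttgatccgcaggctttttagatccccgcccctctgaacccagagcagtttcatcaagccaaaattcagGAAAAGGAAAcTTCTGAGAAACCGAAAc
Ifitm6: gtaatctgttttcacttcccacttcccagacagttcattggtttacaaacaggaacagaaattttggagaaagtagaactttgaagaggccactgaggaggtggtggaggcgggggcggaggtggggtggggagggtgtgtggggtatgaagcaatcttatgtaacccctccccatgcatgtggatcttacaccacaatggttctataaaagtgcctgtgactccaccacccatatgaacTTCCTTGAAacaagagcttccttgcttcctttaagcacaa
In Ifitm2 the ISRE core GAAAAGGAAA began 46 bases before the start. In Ifitm3 the same core GAAAAGGAAA began at base 3 of the transcript, and another core, GAAACCGAAA, began at base 20, with a GAS element, TTCTGAGAA, from base 14 to base 22 that overlapped it. In Ifitm6 a GAS element, TTCCTTGAA, began 10 bases before the start. These letters were not found in the windows of Ifitm1, Ifitm5, Ifitm7 or Ifitm10. The Ifitm1 window, chr7:140967826-140968105, lay inside the GENCODE gene, whose outermost start on the plus strand is 140967221. The Ifitm6 window also lay inside its gene, whose outermost start on the minus strand is 141017924. Those outermost GENCODE starts of Ifitm1 and Ifitm6 were thus not searched.

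The libraries held between 19277439 and 23586722 reads assigned to genes. The 10 genes with the most reads took 5.55% to 5.85% of a PBS library and 11.6% to 11.97% of a pIpC library. Values below are the deposited normalized counts, and log2 fold changes are pIpC over PBS on the log2(value + 1) scale, with the standard error (SE) from the limma fit over all genes tested. Brd9 transcripts over the whole gene were not lower in the libraries labelled pIpC: 1835 ± 176 (SD, n = 3) with PBS and 2103 ± 139 (SD, n = 3) with pIpC, with a two-sided exact permutation p = 0.1, the smallest that 3 against 3 allows. A count over the whole gene cannot show the loss of single exons, so it checks the labels only in part. The leukemia program genes Hoxa9, Hoxa10 and Meis1, which MLL fusions are known to switch on, had log2 fold changes of -4.32 (SE 0.130), -6.38 (SE 0.245) and -4.01 (SE 0.141), while markers of mature blood cells were higher. The RNA of the libraries labelled GFP+ and pIpC was thus low in these genes. They belong to a stem and progenitor list of which 5 tested genes fell and 3 rose. Those that rose were Mecom, by 5.05 (SE 0.422), Hlf, by 4.26 (SE 0.265), and Flt3, by 1.45 (SE 0.281). Of the 15020 genes with a mean of at least 10, limma called 45.3% at a Benjamini-Hochberg adjusted p below 0.1, with 25.0% higher and 20.4% lower in pIpC.

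All 7 IFITM genes were higher in every pIpC library than in every PBS library, an order that 30.5% of all genes tested showed. The median log2 fold change of the members was 4.63, against 0.0146 over all genes tested. All 7 passed the filter on low values, but only Ifitm1, Ifitm2, Ifitm3 and Ifitm6, 4 of the 7, reached a mean of 10 in PBS. Ifitm5, Ifitm7 and Ifitm10 passed through their pIpC libraries alone, so a difference was built into their passing. In bulk RNA, fewer cells of a type and less RNA per cell cannot be told apart.

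**Figure D1:**
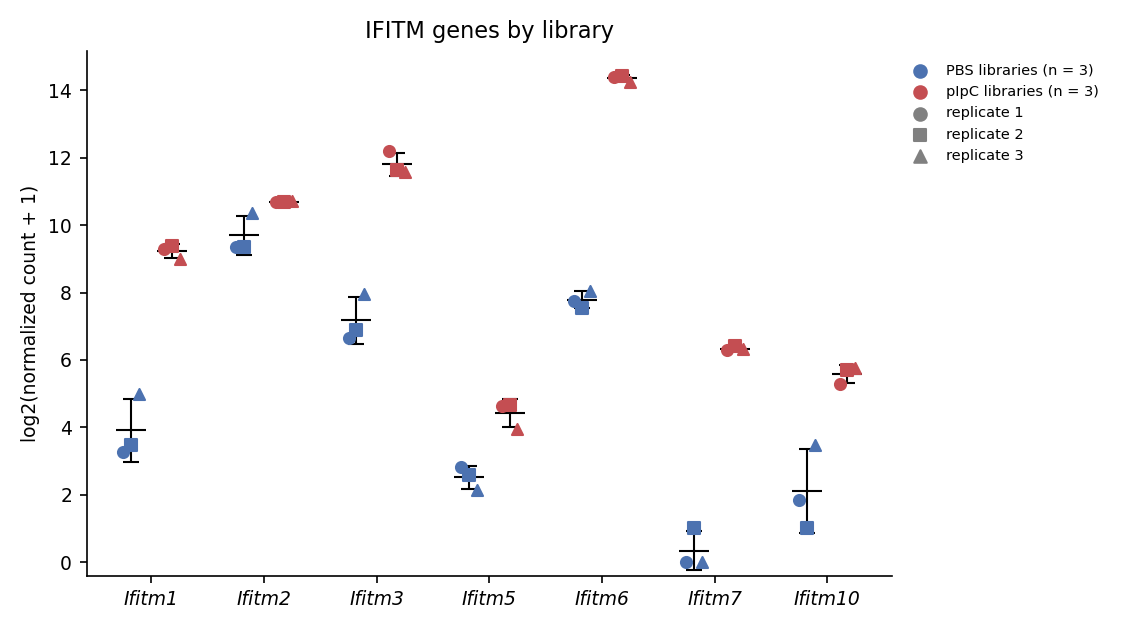
Normalized counts of the 7 IFITM genes in each library, as log2(value + 1), with the mean and SD of each group (n = 3). In every gene the 3 pIpC libraries (red) lie above the 3 PBS libraries (blue), and replicate 3 is the highest PBS library in Ifitm1, Ifitm2, Ifitm3, Ifitm6 and Ifitm10.

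Among the antiviral members of the cluster, Ifitm3, which acts mainly in late endosomes, stood at 99.5, 118 and 249 in PBS replicates 1 to 3 and at 4707, 3167 and 3081 in pIpC replicates 1 to 3. Its log2 fold change was 4.63 (SE 0.362), from 156 ± 81.4 to 3652 ± 915 (SD, n = 3 each). The pIpC libraries all exceeded the highest PBS library by a wide margin, and pIpC replicate 1 stood 1.49 times above replicate 2 and 1.53 times above replicate 3. Ifitm1, which acts largely at the cell surface, gave 8.65, 10.1 and 30.6 in PBS and 626, 670 and 507 in pIpC. Its log2 fold change was 5.31 (SE 0.461), and the PBS values rested on 47 reads in all. Ifitm2, another endosomal member, gave 655, 653 and 1327 in PBS against 1643, 1651 and 1676 in pIpC. Its log2 fold change of 1.00 (SE 0.282) was the smallest of the family in this fit, and its pIpC libraries were close together, at 1657 ± 17.2 (SD, n = 3), while PBS replicate 3 lay nearer to them than to the other PBS libraries.

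Ifitm6, a member known from myeloid cells of the marrow, had the highest level of the family in pIpC. It stood at 214, 187 and 265 in PBS and at 21409, 21950 and 19643 in pIpC, with a log2 fold change of 6.57 (SE 0.155). The spread within either group was small beside that gap, with means of 222 ± 39.4 and 21001 ± 1207 (SD, n = 3 each). Ranked per kb of exon among 55141 genes, it moved from position 4336 in PBS to position 39 in pIpC, while Ifitm3 moved from 4532 to 182 and Ifitm2 from 769 to 376.

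The remaining 3 members were rare. Ifitm5, which encodes a protein of osteoblasts also called BRIL, stood at 6.06, 5.06 and 3.40 in PBS and 24.0, 24.5 and 14.5 in pIpC, on 15 and 63 reads in all, with a log2 fold change of 1.91 (SE 0.392). Ifitm7 had 1 read over the 3 PBS libraries, in replicate 2, and values of 76.9, 83.8 and 79.3 in pIpC. The ratio of its depth-scaled read totals, 241 reads in pIpC over 1 in PBS, was 242 (95% exact interval 43.0 to 9598, covering counting error only). Ifitm10, whose function is little known, stood at 2.60, 1.01 and 10.2 in PBS, on 13 reads in all, and at 37.9, 51.1 and 53.2 in pIpC, with a log2 fold change of 3.47 (SE 0.641). None of these groups overlapped, but the PBS levels of the 3 genes came from so few reads that the sizes of their differences were poorly fixed. The log2 fold change of Ifitm7 was 6.00 with a pseudocount of 1, 8.49 with a pseudocount of 0.1 and 3.12 with a pseudocount of 10.

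Per kb of exon, the order of the family was not the same in the 2 groups. In PBS, Ifitm2 came first with 1341 ± 594 normalized counts per kb (SD, n = 3), followed by Ifitm6 with 245 ± 43.6 and Ifitm3 with 230 ± 120, whose ranges overlapped. Ifitm1 at 15.0 and Ifitm5 at 6.32 came next and overlapped narrowly, the lowest Ifitm1 value being 7.91 and the highest Ifitm5 value 7.92. Ifitm10 at 0.960 and Ifitm7 at 0.142 came last, again with overlapping ranges. In pIpC, Ifitm6 came first with 23210 ± 1333 per kb, then Ifitm3 with 5386 ± 1349, Ifitm2 with 2529 ± 26.2 and Ifitm1 with 549 ± 77.3 (SD, n = 3 each), each range clear of the next. Ifitm7 at 33.7 and Ifitm5 at 27.4 did not overlap by a narrow margin, the lowest Ifitm7 value being 32.3 and the highest Ifitm5 value 32.1, and Ifitm10 was last at 9.90. Dividing by the longest transcript in place of all exon bases left every rank in both groups as it was. Exon bases shared with Gm45717, 40.9% of those of Ifitm2 and 29.7% of those of Ifitm5, stayed in the divisor. So did 10.9% of those of Ifitm7, shared with 2900011O08Rik on the opposite strand, and 4.49% of those of Ifitm10, shared with Gm49369. Whether reads on them were counted is not given, so per kb levels, ranks and shares of Ifitm2, Ifitm5, Ifitm7 and Ifitm10 could be too low. For Ifitm7 this holds only if reads were counted without regard to strand, which is unsure. The narrow order of Ifitm7 and Ifitm5 in pIpC is therefore unsure.

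Expressed as shares, Ifitm2 made up 71.5% to 74.5% of the summed IFITM level per kb in PBS libraries and 7.43% to 8.72% in pIpC libraries. Ifitm6 went the other way, from 10.8% to 16.9% in PBS to between 70.1% and 75.5% in pIpC. Ifitm3 held 10.5% to 13.5% in PBS and 14.5% to 20.6% in pIpC. The sum itself was 1838 ± 764 per kb in PBS and 31740 ± 2235 per kb in pIpC (SD, n = 3 each).

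**Figure D2:**
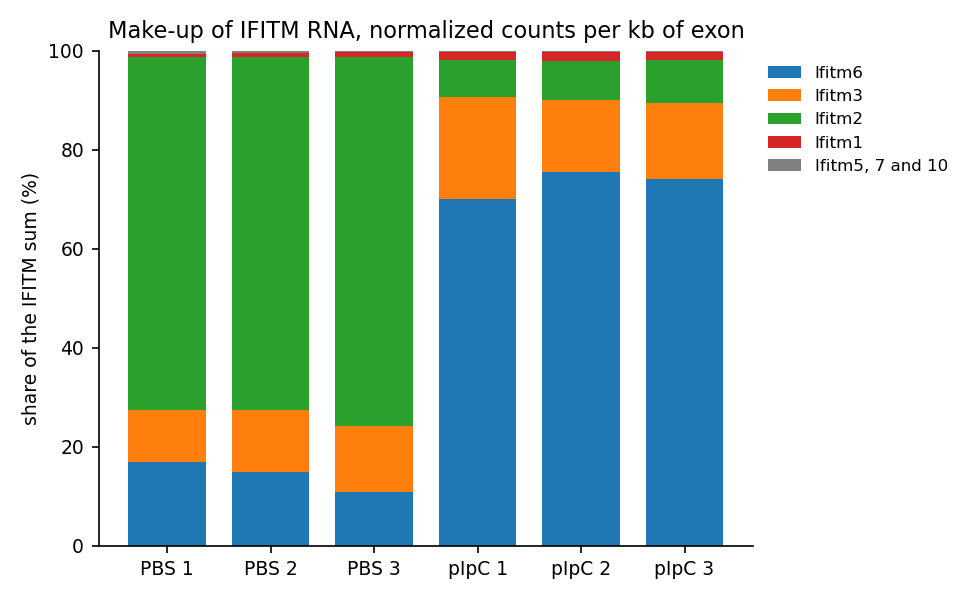
Share of the summed IFITM level (normalized counts per kb of exon, in percent) held by each gene in each library. Ifitm2 (green) takes 71.5% to 74.5% of the PBS bars, and Ifitm6 (blue) takes 70.1% to 75.5% of the pIpC bars.

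Spread among the libraries of a group differed between members. PBS replicate 3 gave the highest PBS value for 5 of the 7 members, whereas it was the highest PBS library for 45.2% of all genes tested. This library also read higher for short transcripts: the 1876 genes tested whose longest transcript is under 1000 bases had a median deviation of 0.610 (log2) from the PBS mean there, against -0.234 for the 7444 genes of 3000 bases or more. Ifitm1, Ifitm2, Ifitm3, Ifitm5 and Ifitm6 are all under 1000 bases, and their own deviations in PBS replicate 3 were 1.07, 0.680, 0.793, -0.382 and 0.269. The part of transcript length in these values was not tested. Without PBS replicate 3 the log2 fold changes were 5.85 for Ifitm1, 1.34 for Ifitm2, 5.03 for Ifitm3 and 4.15 for Ifitm10.

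Within pIpC, replicate 1 stood apart for interferon-stimulated genes. Of 63 such genes outside the family, 61 were highest in pIpC replicate 1, as against 36.1% of all genes tested, and their median deviation there was 0.346 (log2) from the pIpC mean, compared with -0.114 in replicate 2 and -0.213 in replicate 3. Ifitm3 was the only IFITM gene highest in that library, with a deviation of 0.394. Of the 63 genes, 28 deviated more than Ifitm3 in that library. Ifitm6, at 0.029, Ifitm1, at 0.068, and Ifitm2, at -0.012, were nearly level with the other pIpC libraries, and 60, 57 and 62 of the 63 genes deviated more than they did. With 1 library the pattern has no replicate check. Without pIpC replicate 1, 60 of these genes were tested, of which 23 rose and 6 fell.

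**Figure D3:**
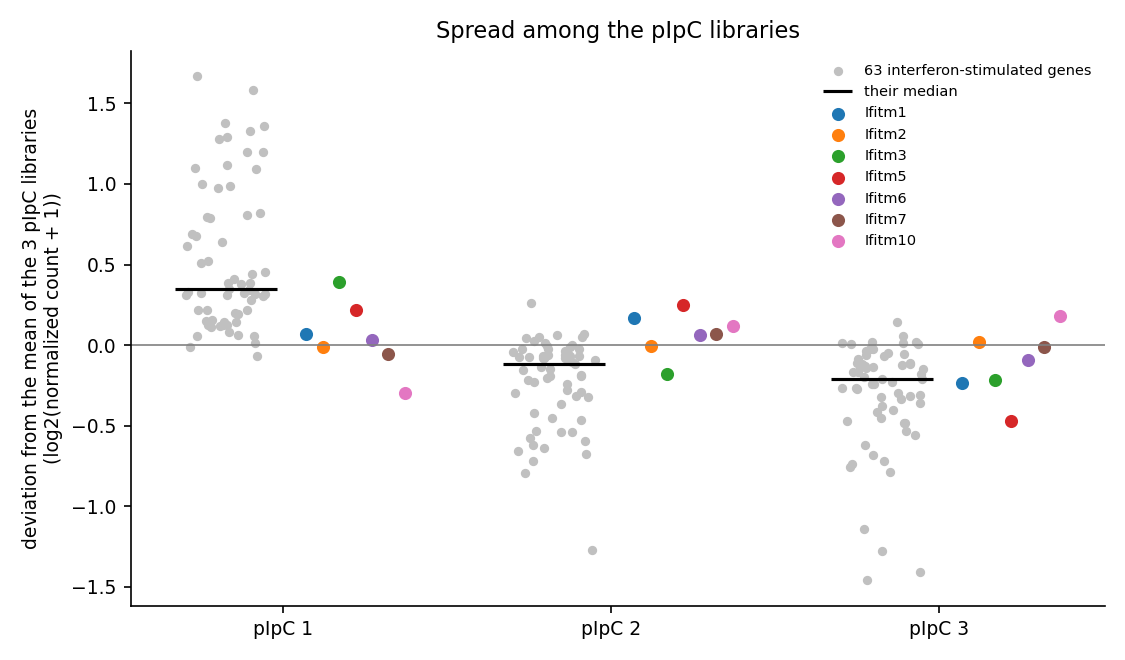
Deviation of each pIpC library from the mean of the 3 pIpC libraries, in log2(normalized count + 1), for 63 interferon-stimulated genes (grey, with their median as a black bar) and the 7 IFITM genes (colored). The median of the grey points is 0.346 in replicate 1, where Ifitm3 lies at 0.394 and Ifitm6 at 0.029.

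Interferon-stimulated genes outside the family rose more often than they fell. Of the 63 tested, 32 rose and 5 fell by limma, with a median log2 fold change of 0.824. These were 50.8% and 7.94% of the list, against 25.0% and 20.4% of all genes tested. Largest among those that rose were Ifit1bl2, of the IFIT family of antiviral proteins, at 5.63 (SE 0.409), Ifi44 at 3.86 (SE 0.949) and Oas3, an oligoadenylate synthetase that senses double-stranded RNA, at 3.71 (SE 0.30). Ifi44 was at 64.9, 25.5 and 8.70 in pIpC, so that rise was uneven between libraries. Oas1a, another oligoadenylate synthetase, fell by 1.34 (SE 0.473), Ifi35 fell by 1.17 (SE 0.408) and Ifi27 fell by 1.16 (SE 0.455). In each of these 3 genes, PBS replicate 3 was the highest library of all 6. All 3 calls were lost without pIpC replicate 2 and without pIpC replicate 3, each of which left 2 genes of the list lower, and that of Ifi27 also without pIpC replicate 1.

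Of 24 interferon receptors, kinases and transcription factors, 11 rose and 3 fell, with a median log2 fold change of 0.338. These were 45.8% and 12.5% of the list, against 25.0% and 20.4% of all genes tested. Ifnlr1, the receptor chain for interferon lambda, rose by 5.86 (SE 0.433), from 24.6 ± 12.6 to 1337 ± 151 (SD, n = 3 each). Socs3, an inhibitor of JAK-STAT signaling, rose by 5.03 (SE 0.654), and Irf2 rose by 1.01 (SE 0.170). The interferon gamma receptor chains moved in opposite directions, as Ifngr1 fell by 0.677 (SE 0.114) and Ifngr2 rose by 0.773 (SE 0.144). Il10rb, which pairs with the interferon lambda receptor, fell by 0.489 (SE 0.121), and the transcription factor gene Irf5 fell by 0.435 (SE 0.165), a call lost in 9 of 18 alternatives, among them the fit without PBS replicate 1 and each fit without a pIpC library. Jak1 rose by 0.734 (SE 0.195) and Irf1 by 0.802 (SE 0.158).

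Other receptor chains, kinases and factors of the type I interferon pathway did not pass the test. The log2 fold changes were 0.0489 (SE 0.129) for Ifnar1, 0.0241 (SE 0.125) for Ifnar2, 0.240 (SE 0.245) for Tyk2, -0.0966 (SE 0.137) for Stat2, 0.832 (SE 0.379) for Irf7 and 0.364 (SE 0.184) for Irf9. The signs for Ifnar1, Ifnar2 and Tyk2 turned under other processing. Irf7 had 777 in pIpC replicate 1 against 376 and 362 in the other pIpC libraries, and lies 245 kb from Ifitm6.

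Of 19 tested genes for proteins that modify or bind IFITM proteins, 10 rose and 2 fell, with a median log2 fold change of 0.349. These were 52.6% and 10.5% of those tested, against 25.0% and 20.4% of all genes tested. Nedd4, whose ubiquitin ligase marks IFITM3 for turnover, rose by 2.41 (SE 0.242), from 1410, 1560 and 824 in PBS to 6550, 6461 and 6408 in pIpC. Cd9, a tetraspanin, rose by 3.44 (SE 0.182), the tetraspanin Cd81 by 0.848 (SE 0.125) and Fyn, a kinase of the Src family, by 3.92 (SE 0.214). Among the palmitoyltransferases, Zdhhc3 rose by 0.648 (SE 0.108). Zdhhc20 rose by 0.348 (SE 0.121), a call lost in 10 of 18 alternatives, among them those without PBS replicate 2 and without each pIpC replicate, whereas Zdhhc2 fell by 3.31 (SE 0.200) and Zdhhc1 fell by 0.837 (SE 0.189). Other genes of the CD225 family were nearly silent: of 7 listed, 1 was tested, Tmem91, which fell by 1.07 (SE 0.430, limma adjusted p = 0.0964), a call lost under most alternatives.

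**Figure D4:**
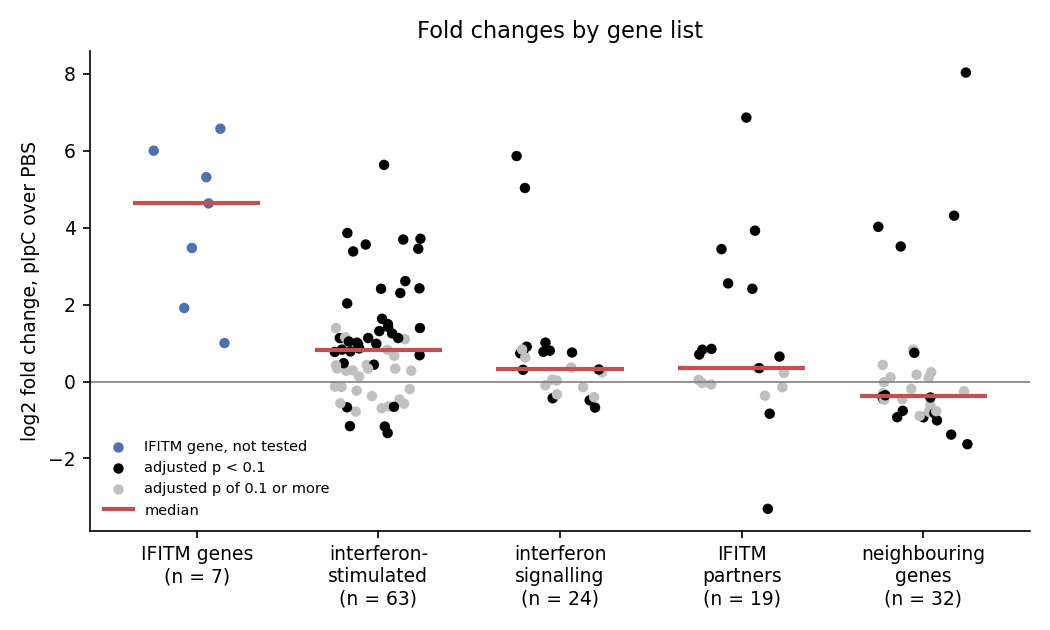
Log2 fold change (pIpC over PBS) of each gene tested in 5 lists, with the list's median as a red bar. The IFITM genes (blue, shown without a test) have a median of 4.63, and the medians of the other lists are 0.824, 0.338, 0.349 and -0.376.

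Around the cluster, 8 genes fell and 1 rose. Over all genes tested, 45.3% were called, 20.4% lower and 25.0% higher, so calls as such were common everywhere. Of 40 other annotated genes within 250 kb of the 5 clustered members, 19 were tested, with a median log2 fold change of -0.473. The number that fell was 4 without pIpC replicate 1, 4 without replicate 2 and 4 without replicate 3. The gene that rose was Gm7514, a processed pseudogene between Ifitm1 and Ifitm3, at 2.60, 1.01 and 4.53 in PBS and 47.9, 84.8 and 73.5 in pIpC, a log2 fold change of 4.31 (SE 0.473). Its sequence shared no run longer than 12 bases with a transcript of any IFITM gene. Pgghg, a glucosidase gene only 1.29 kb from Ifitm5, fell by 0.928 (SE 0.124). On the other side, B4galnt4, 43.2 kb from Ifitm6, had a log2 fold change of 0.0930 (SE 0.298), and Pkp3, which encodes the desmosomal protein plakophilin, fell by 1.63 (SE 0.427).

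**Figure D5:**
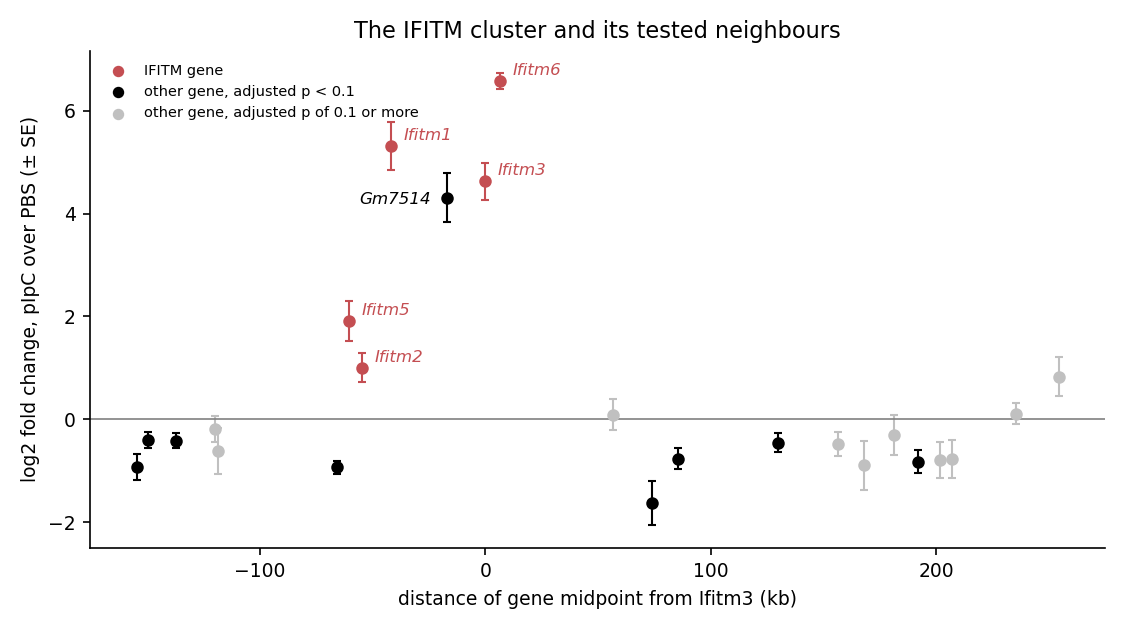
Log2 fold change (pIpC over PBS, with SE) of the 5 clustered IFITM genes (red) and the 19 tested neighbors within 250 kb, against the distance of each gene's midpoint from Ifitm3 in kb. Gm7514, at 4.31, is the only neighbor called higher, and 8 neighbors are called lower. Of all genes tested, 25.0% were called higher and 20.4% lower.

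Around Ifitm10, 7 genes were tested, of which 3 rose and 2 fell. Ctsd, the gene for the lysosomal protease cathepsin D, 2.16 kb away, had a log2 fold change of 0.179 (SE 0.257), while farther off the noncoding RNA gene Gm33148 rose by 8.03 (SE 0.583) and Prr33 by 4.02 (SE 0.400). Gm33148 averaged 1.01 in PBS and passed the filter through its pIpC libraries alone. Its log2 fold change was 10.4 with a pseudocount of 0.1 and 5.28 with a pseudocount of 10. Also near Ifitm10, Mrpl23, of the mitochondrial ribosome, fell by 1.01 (SE 0.369) and Syt8, a synaptotagmin, by 1.38 (SE 0.464). The call of Mrpl23 was lost in 5 of 18 alternatives and that of Syt8 in 4 of 17, among them each fit without a pIpC library. Around Ifitm7, 6 genes were tested, with 1 higher and 1 lower, and Mpv17l, 32.1 kb away, had a log2 fold change of -0.253 (SE 0.337).

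The genes most like each member over the 6 libraries were found by the root mean square distance between profiles of log2(value + 1) centered on their mean. Among the members themselves, Ifitm1 and Ifitm3 were closest, at 0.416, followed by Ifitm6 and Ifitm7, at 0.543, and Ifitm2 and Ifitm6 were farthest apart, at 2.79. Nearest to Ifitm6 were Smo, the Hedgehog signal transducer (0.180), Wfdc21, of the whey acidic protein family (0.202), and the immunoglobulin segment Igkv12-46 (0.202). Wfdc21 stood at 75.8 ± 24.8 in PBS and 7324 ± 122 in pIpC (SD, n = 3 each). Nearest to Ifitm3 were Igkv8-28 (0.190), Homer2 (0.215) and Sall2 (0.246), all near 0 in PBS, and nearest to Ifitm1 were the transcription factor gene Mycn (0.221), P2ry10 (0.223) and Tceal8 (0.232). PBS means were also near 0 for Smo (1.67), Igkv12-46 (0), Mycn (0.754) and P2ry10 (0.754). Distances to such genes depend on the pseudocount.

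For Ifitm2 the nearest genes were AC114539.1 (0.0528), Msrb2 (0.0672), a methionine sulfoxide reductase, and Cdkn2d (0.0746), an inhibitor of cell cycle kinases. They shared the high value of Ifitm2 in PBS replicate 3, as Cdkn2d stood at 819, 931 and 1772 in PBS. Ifitm2 had 1943 tested genes within a distance of 0.5, against 86 for Ifitm6 and 100 for Ifitm3. Ifitm5 lay nearest Gm42829 (0.110), Skil (0.173) and Amotl2 (0.202), Ifitm7 nearest Gramd2 (0.136), Pknox2 (0.141) and the actinin gene Actn1 (0.168), and Ifitm10 nearest Tbc1d10c (0.212), Mapk11 (0.261) and Klre1 (0.271). Gramd2, Pknox2, Mapk11 and Klre1 were near 0 in PBS as well, with means of 1.68, 0.337, 1.42 and 2.93.

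Markers of several blood lineages were also higher in pIpC. Over all genes tested, 25.0% were called higher and 20.4% lower. All 12 mature neutrophil markers rose, and their summed level went from between 20720 and 42430 in PBS libraries to between 2092000 and 2151000 in pIpC libraries. Ltf, the gene for lactoferrin of neutrophil granules, rose by 7.51 (SE 0.314), Mmp8 by 7.24 (SE 0.347) and Ly6g by 8.23 (SE 0.783). All 10 erythroid markers tested rose, from a sum of 20.8 to 37.3 to one of 4743 to 6729, with Slc4a1 at 0 in every PBS library. Only 1 of them reached a mean of 10 in PBS, so a rise was built into the passing of the rest. All 11 B cell markers rose, from a sum of 1783 to 3003 to one of 10610 to 40620, with Ms4a1 at 0 in every PBS library. Of these, 3 reached a mean of 10 in PBS, so a rise was built in for the rest here too. Of the basophil and mast cell markers, 6 of 8 rose and 1 fell, with sums of 4437 to 6790 and 10990 to 13120, and Fcer1a, part of the IgE receptor, was at 0 in PBS. In this list 5 markers reached a mean of 10 in PBS. Whether a GFP+ sort or a c-Kit+ selection was applied is unsure, and the purity of the cells was not tested here. The part of cells of these lineages in the IFITM values was not tested either.

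Other marker lists moved in both directions or only in part, against 25.0% higher and 20.4% lower over all genes tested. Of the T and NK cell markers, 7 of 8 tested rose and 1 fell, with sums of 738 to 752 in PBS and 4003 to 4629 in pIpC. Only 2 of the list, Nkg7 and Bcl11b, reached a mean of 10 in PBS, and they held most of these sums. Nkg7 went from 210 ± 78.9 to 4023 ± 306 and Bcl11b from 514 ± 75.2 to 3.015 ± 1.775 (SD, n = 3 each). Of 12 monocyte and macrophage markers 8 rose and 3 fell, and the sums overlapped, at 39320 to 39560 and 39000 to 43120, with Adgre1, which encodes F4/80, lower by a log2 fold change of -3.80 (SE 0.140). Of 8 endothelial markers 7 rose, with sums of 1315 to 2234 and 1457 to 1573, which overlapped, and 4 of the 8 reached a mean of 10 in PBS. For Ifitm5, the osteoblast list gave 3 of 5 tested higher and 1 lower, with sums of 931 to 1264 and 1589 to 1708. Spp1 and Ibsp rose, Col1a2 fell from 102 ± 6.88 to 53.9 ± 17.4 (SD, n = 3 each), and Runx2 rose by 0.447 (SE 0.164), a call lost in 10 of 18 alternatives, among them those without PBS replicate 2 and without each pIpC replicate. The call of Ibsp was lost in 5 of 17 alternatives, among them each fit without a pIpC library. Ibsp averaged 6.59 in PBS and 22.9 in pIpC, so it passed the filter through pIpC alone. Col1a1, also tested, was not called and lay between 67.4 and 99.8 in every library. The other osteoblast genes listed did not pass the filter. Among them, Bglap reached at most 2.60, Bglap2 0.967, Dmp1 2.99 and Sp7 2.04 in any library, with Bglap2 and Dmp1 at 0 in PBS. Alpl and Phex were higher in every pIpC library than in every PBS library. Alpl reached at most 1.13 in PBS and at least 13.3 in pIpC, and Phex at most 2.02 and at least 3.07. Of 9 stem and progenitor markers tested, 3 rose and 5 fell, from sums of 38290 to 45510 to sums of 16540 to 16830.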

How the data were processed

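Poly(A)-selected RNA of 6 libraries (3 PBS, 3 pIpC) was analyzed from 1 table of normalized counts, deposited by the authors as a continuous signal scaled for library size. The submitters' processing notes name HISAT2 2.2.1, SAMtools, featureCounts, Subread and edgeR with GRCm38. The study's methods describe another route (STAR, RSEM and DESeq2) and a stranded kit where the labels give an unstranded one, so which made the table is unsure. In each library 100% of values were whole multiples (within 0.01) of 1 read, which gave reads back, from 19277439 to 23586722 a library.

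Genes with a mean of at least 10 (15020 of 55487) were tested with limma 3.58.1 with an intensity trend on log2(value + 1) at a Benjamini-Hochberg adjusted p below 0.1. Count tests on the recovered reads called 6901 genes with edgeR 4.0.16 and 7451 with DESeq2 1.42.0, against 6808 with limma. On simulated data for pIpC against PBS (14822 genes, of which 198 were changed, log2 change 2), limma recovered 82.3% of changed genes and 13.3% of its calls were false. The false share was 12.8% with edgeR and 36.6% with DESeq2. Far fewer genes changed there than the 45.3% called in the real data, so these shares do not carry over. Levels per kb used GENCODE M21 exon bases, and promoter windows came from RefSeq, GRCm38.p6. Exact intervals and the small read totals cover counting error only.

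The genes named were all IFITM genes, Brd9, the 3 highest and 3 lowest called genes of each list, tested neighbors within 50 kb, 15 preset signaling and partner genes, and the 3 genes most alike in profile to each member. Zdhhc3 was named outside this rule, and its alternatives are not counted below. The members and lists were chosen with earlier results of these data known. Alternatives were another filter, pseudocount, scaling, threshold, window and test, a replicate block, and each library left out. Removing each library's trend with transcript length, and scaling recovered reads by the library total, were chosen after seeing the data. Protein sequences were not used here, and some genes that this rule or the lists cover are not reported here.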

Additional observations from a re-analysis of the deposited data

How the results depend on the processing

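The pIpC libraries stayed above the PBS libraries for all 7 IFITM genes under quantile normalization, median centering and recovered reads scaled by the library total. Leaving a library out, or changing the pseudocount, filter or threshold, cannot break such an order, so these settings give no check of it. Of 116 alternative values of the members, 13 moved by more than the spread between replicates, most of them for rare members. None reversed, but many of the 116 come from settings that could not have reversed them. With the trend of transcript length removed, Ifitm2 had a log2 fold change of 1.47, Ifitm5 of 2.35 and Ifitm6 of 7.0, and under quantile normalization Ifitm5 had one of 0.997. Over the leave-one-out fits, Ifitm2 ranged from 0.828 to 1.34 and Ifitm10 from 2.92 to 4.15.

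Replicate numbers did not pair the samples: deviations of same-numbered libraries correlated at -0.117, 0.143 and 0.0405, and a replicate block called 6095 genes against 6808 without it. Calls ranged from 4551 without pIpC replicate 2 to 9829 without PBS replicate 3. Quantile normalization turned the share of calls that were higher from 55.1% to 44.3%, with a median shift of all genes to -0.12. The call of Tmem91, the 1 tested gene of the CD225 list, was lost (0 calls) with a mean of at least 50, which it did not reach, and with median centering, no filter, a pseudocount of 0.1 and an adjusted p below 0.05. Its count was 0 to 1 over the leave-one-out fits. Calls among neighbors, 16 in the reported fit, were 10 at an adjusted p below 0.05, 9 within 100 kb, where 16 genes were tested, and 8 to 22 over the leave-one-out fits (9, 8 and 8 without pIpC replicates 1, 2 and 3). Of the 16, 5 were higher and 11 lower, against 4 and 4 without pIpC replicate 2 or 3 and 10 and 12 without PBS replicate 3.

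Of 1336 alternative values for 75 other named genes, 1253 kept their direction and side of the threshold, 68 lost the call, 6 gained it and 9 turned sign. The log2 fold changes that turned were, under quantile normalization, -0.348 for B4galnt4, -0.0734 for Ifnar1 and -0.126 for Ifnar2, with the length trend removed -0.04 for Ifnar1, and, as ranges over the leave-one-out fits, -0.0381 to 0.0977 for Ifnar1, -0.0534 to 0.105 for Ifnar2, -0.0456 to 0.395 for Tyk2, -0.432 to 0.018 for Mpv17l and -0.0614 to 0.281 for B4galnt4. None of these genes was called in the reported fit, and the cause was not tested. Levels of Ifitm7, Ifitm10 and Ifitm5 in PBS are limited by depth.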
